A study of Mus musculus with 12 samples.

Results

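Keratins are the proteins of the intermediate filaments of epithelial cells. A filament is built from pairs of 1 type I and 1 type II keratin, and the pair a skin cell makes reports its state. Basal cells of the epidermis and of the hair follicle make KRT5 with KRT14, suprabasal epidermal cells make KRT1 or KRT77 with KRT10, and injured or activated keratinocytes add KRT6 with KRT16 and KRT17. KRT17 is also made in the unwounded hair follicle, KRT79 is known from the upper hair follicle and its canal, and KRT80 is a type II keratin of differentiating epithelia. The 10 genes described here are Krt1, Krt5, Krt6b, Krt10, Krt14, Krt16, Krt17, Krt77, Krt79 and Krt80, of 23735 gene models measured, each found by its symbol on 1 row of the deposited tables.

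RNA was sequenced in 12 libraries from 7 groups of hair follicle stem cells, purified from mouse dorsal skin by cell sorting. The anagen iKO group held 2 libraries, each labelled as from a male mouse, in which tamoxifen, injected into the abdomen, had activated a Sox9-driven CreER to delete Foxc1, a forkhead transcription factor. The anagen Het group held 2 libraries from males heterozygous for the deletion that were given tamoxifen too, and all of these mice were at postnatal day 30, carried a YFP reporter and were of a Black Swiss and C57BL/6 mix. The second telogen cKO group held a male at postnatal day 42 and a female at day 46, both Black Swiss, with Foxc1 deleted by K14Cre, which the promoter of Krt14 drives in all basal epithelial cells of the skin and not in the stem cells alone. The second telogen iKO group held 2 libraries from tamoxifen-treated Sox9CreER males at day 60 of the mixed strain. The second telogen WT group held a Black Swiss male at day 42 and female at day 46 with no Cre named. Shh-heterozygous Agouti females gave 1 library of the first telogen at about day 23 and 1 of anagen II at about day 26. Anagen is the growth phase of the hair cycle and telogen its resting phase. The second telogen iKO mice therefore differed from the WT mice in strain, age, sex, Cre driver and tamoxifen treatment as well as in Foxc1. These differences cannot be told apart.

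Each deposited value is 1 FPKM per group, a fragment count scaled to transcript length and library size, pooled by the authors over a group's libraries. No value per library, and so no overlap between groups and no depth, could be read. A gene is called here where the q-value in the authors' deposited table is below 0.05, and SE is the log2 fold divided by the deposited test statistic. Foxc1 itself was at 1.40 FPKM in anagen iKO cells and 23.9 in anagen Het cells, and at 1.59 in second telogen cKO cells and 26.5 in WT cells. In the joint table of all groups, second telogen iKO cells had 3.17 FPKM of Foxc1 and WT cells 27.5. All 12 bulge stem cell markers were above 6 FPKM in all 7 groups, with Cd34, a surface marker of these cells, between 129 and 883 FPKM. The 2 Shh-heterozygous libraries stand apart, with fibroblast markers that sum to 2527 FPKM in the first telogen and 1247 in anagen II, against 180 to 420 in the 5 replicated groups.

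The type I genes lie on mouse chromosome 11 and the type II genes on chromosome 15, in build mm9. Krt10 spans chr11:99246568-99250678, Krt14 chr11:100064475-100068824, Krt16 chr11:100107405-100110216 and Krt17 chr11:100117530-100122303, so that the last 3 are neighbours. Krt80 spans chr15:101180001-101200556, a locus that 2 rows share, Krt5 chr15:101537500-101543322, Krt1 chr15:101675856-101681217, Krt77 chr15:101690286-101700049 and Krt79 chr15:101759762-101770755. Krt6b is listed at chr15:101346118-101524736, a locus that 9 rows share, among them a merged row of Krt6a, Krt82 and Krt85.

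RefSeq promoter windows, from 250 bases before to 50 bases after the start in build GRCm38.p6, matched 5 of the 10 genes: Krt5, Krt10, Krt14, Krt77 and Krt79. The Krt14 window, chr11:100205981-100206280, lies inside the gene model listed above, judged by the offset between builds at Krt10. It therefore does not cover the promoter at the listed start of Krt14. The windows of Krt10 and Krt77, partners whose levels moved together, and of Krt79, whose level did not follow theirs, are shown 5′ to 3′ on the gene's own minus strand. Krt10 covers chr11:99389315-99389614, Krt77 chr15:101869656-101869955 and Krt79 chr15:101940275-101940574. Capitals mark matches to the TATA letters TATAAA or TATANA on either strand. All matches to the first are also matches to the second.
Krt10: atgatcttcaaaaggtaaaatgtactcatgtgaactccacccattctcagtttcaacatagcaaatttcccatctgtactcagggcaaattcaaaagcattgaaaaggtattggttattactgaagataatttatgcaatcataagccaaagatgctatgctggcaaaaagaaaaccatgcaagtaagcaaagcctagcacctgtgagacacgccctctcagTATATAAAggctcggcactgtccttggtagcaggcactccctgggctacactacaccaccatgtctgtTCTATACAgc
Krt77: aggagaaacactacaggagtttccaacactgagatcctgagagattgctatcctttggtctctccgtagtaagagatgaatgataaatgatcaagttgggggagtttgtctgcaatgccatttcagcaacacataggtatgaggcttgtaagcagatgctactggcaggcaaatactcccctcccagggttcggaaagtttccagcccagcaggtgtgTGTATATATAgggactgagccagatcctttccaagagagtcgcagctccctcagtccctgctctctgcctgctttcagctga
Krt79: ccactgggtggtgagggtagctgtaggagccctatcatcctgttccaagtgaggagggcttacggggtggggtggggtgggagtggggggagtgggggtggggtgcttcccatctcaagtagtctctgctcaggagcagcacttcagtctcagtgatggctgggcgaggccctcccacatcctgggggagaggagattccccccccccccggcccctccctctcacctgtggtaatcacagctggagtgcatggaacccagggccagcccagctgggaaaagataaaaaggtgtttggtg
The search first used TATAAA, which only the Krt10 window of the 5 holds, starting 26 bases before the start, and which 13.6% of 32851 RefSeq promoters hold. The letters were widened to TATANA after the Krt77 promoter had been read. In that form 2 of the 5 windows, those of Krt10 and Krt77, hold a match, as do 24.7% of all promoters. AP-1 (TGANTCA, in 7.81% of all promoters), forkhead (TGTTTAC, 3.65%) and AP-2 (GCCNNNGGC, 16.6%) letters, searched on both strands, are not in these windows of the 5 genes.

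Krt5 and Krt14 are the basal pair. Krt5 carried the status HIDATA in both 2-group tables, which Cuffdiff gives where a locus holds too many fragments to be estimated, and in 20 of the 21 pairs of the joint table. It is listed at 0 in the 5 replicated groups for that reason, and has values only in the first telogen (6364 FPKM) and in anagen II (3948 FPKM). No member had the status FAIL, and the other 9 were tested in each comparison reported below. Krt14 was at 4351 FPKM in anagen iKO, 3630 in anagen Het, 3425 in second telogen cKO, 3526 in second telogen iKO and 2190 in second telogen WT cells. It was at 1452 FPKM in the first telogen and 1524 in anagen II. Krt14 was called in 0 of the 10 pairs of replicated groups (0 at an unadjusted p below 0.05) by the authors' Cuffdiff test, where 22.2% of all gene tests were called, and its lowest q among neighbours in the order of levels was 0.324.

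Krt1, Krt10 and Krt77, the suprabasal genes, were high in telogen and low in anagen. Krt10 was at 2049, 1669 and 1457 FPKM in second telogen cKO, iKO and WT cells, at 292 and 208 in anagen iKO and Het cells, at 607 in the first telogen and at 168 in anagen II. Krt77 was at 879, 893 and 708 FPKM in second telogen cKO, iKO and WT cells, at 123 and 95.4 in anagen iKO and Het cells, at 253 in the first telogen and at 77.8 in anagen II. Krt1 was at 452, 421 and 303 FPKM in second telogen cKO, iKO and WT cells, at 115 and 73.3 in anagen iKO and Het cells, at 218 in the first telogen and at 40.6 in anagen II. For each of the 3 genes no pair of neighbours among the 3 second telogen groups was called, with q between 0.195 and 0.971, and the step between WT and anagen iKO cells was called (q = 0.000444 for each in the authors' deposited table). Fewer cells of a kind and less RNA per cell cannot be told apart in such bulk samples.

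**Figure D1:**
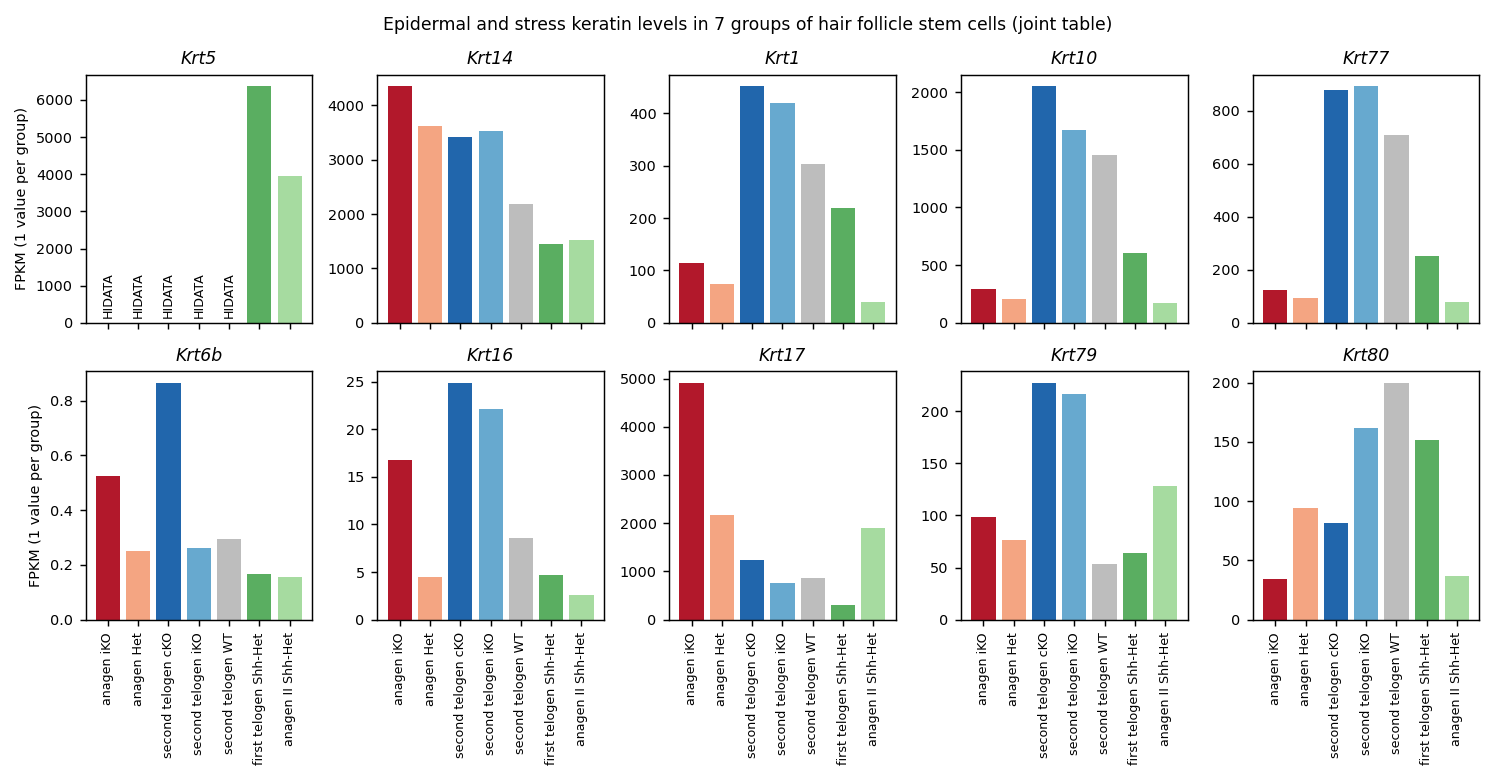
FPKM of the 10 keratins in 7 groups of hair follicle stem cells, with 1 bar per group from the joint table and a separate axis from 0 for each gene; Krt5 has no estimate in the 5 groups marked HIDATA. Krt1, Krt10 and Krt77 stand highest in the 3 second telogen groups, Krt17 in anagen iKO cells (4904 FPKM) and Krt80 in second telogen WT cells (200 FPKM).

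The type I partner stayed near the sum of its type II partners. Krt10 spanned 12.2-fold over the 7 groups and Krt1 plus Krt77 spanned 11.2-fold, while the ratio of Krt10 to that sum lay between 1.22 and 1.54. Which type II gene made up the sum varied more, since Krt77 was 1.07 to 2.33 times Krt1. Against the basal gene Krt14, Krt10 was lowest in anagen Het cells, at 0.0573 times Krt14, and highest in second telogen WT cells, at 0.665 times. The Pearson correlation of log2(FPKM + 1) between Krt10 and Krt77 was 0.997 over 7 groups, the highest of Krt10 with any of 8273 genes compared. Next for Krt10 came Ptgs1, a prostaglandin synthase, at 0.997 and Orm1, an acute-phase protein, at 0.996. These are descriptions, since the groups share scaling and several share a stage.

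**Figure D2:**
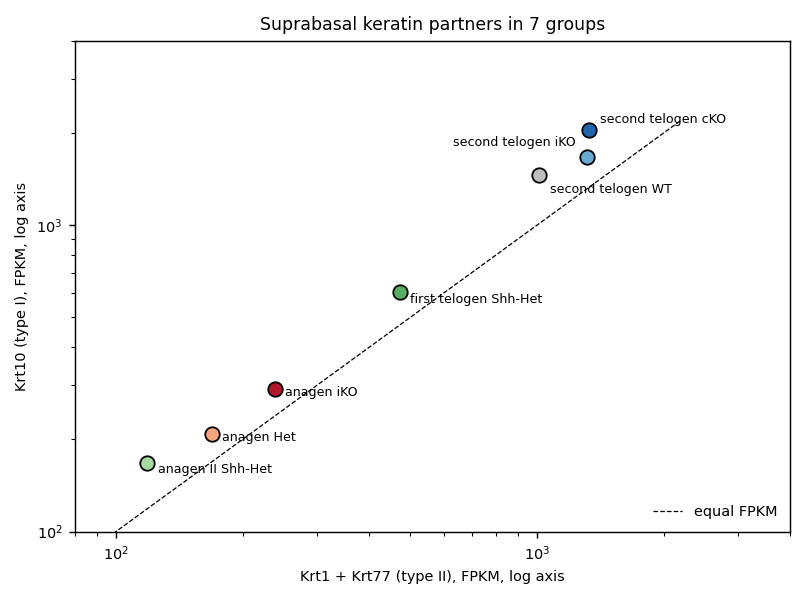
Krt10 FPKM against the summed FPKM of Krt1 and Krt77 in the 7 groups, 1 point each, on log axes with a dashed line of equal FPKM. All points lie above the line, by 1.22 to 1.54 times.

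Loss of Foxc1 went with more Krt16 in each of the 3 knockout comparisons. In anagen, 4 of the 9 tested keratins passed the test in the authors' deposited table, Krt1, Krt16 and Krt17 with higher and Krt80 with lower levels in iKO cells. The share called among all 13716 genes tested was 10.3%, with 5.18% higher and 5.08% lower. In the second telogen, 3 of 9 passed it, Krt16 and Krt79 with higher and Krt80 with lower levels in cKO cells. The share called among all 13551 genes tested was 6.62%, with 3.75% higher and 2.87% lower. In second telogen iKO against WT cells 2 of 9 were called, Krt16 and Krt79, both higher. The share called among all 13714 genes tested was 12.9%, with 7.01% higher and 5.88% lower. The cKO and iKO comparisons of the second telogen share the WT libraries. The median log2 fold over the 9 tested keratins was 0.49, 0.57 and 0.33 in these comparisons in that order. With a pseudocount of 1 it was 0.36, 0.52 and 0.33, where the median of all tested genes was -0.02, 0.00 and -0.02.

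Krt16, a type I keratin of activated epidermis, was at 17.8 FPKM in anagen iKO and 4.74 in anagen Het cells (log2 fold 1.91, SE 0.31, q = 0.00106). It was at 23.9 FPKM in second telogen cKO and 8.25 in WT cells (log2 fold 1.53, SE 0.35, q = 0.00159). In the joint table second telogen iKO cells had 22.1 FPKM and WT cells 8.58 (log2 fold 1.37, SE 0.30, q = 0.000444). Its level remained a small part of that of Krt17, between 0.136% and 2.88% over the 7 groups. Of the 50-base stretches of the Krt16 transcript (GENCODE M21), 37.6% also occur in other genes, 25.2% in the Gm11597 transcript and 12.4% in Krt14, so its values are uncertain to the extent that reads were shared. Krt14 itself, a far more abundant neighbour, had log2 folds of 0.26, 0.64 and 0.69 in the 3 comparisons with no call; its part in the Krt16 values was not tested.

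Krt17, a type I keratin of the follicle and of activated cells, was called in the anagen table. It was at 5197 FPKM in iKO and 2304 in Het cells (log2 fold 1.17, SE 0.42, q = 0.0153). In the joint table the same fold had q = 0.127 and was not called. In the second telogen it was at 1184 FPKM in cKO and 827 in WT cells (log2 fold 0.52, SE 0.51, q = 0.679), and in the joint table at 768 in iKO and 861 in WT cells (log2 fold -0.16, SE 0.35, q = 0.719). The telogen cKO effect minus the anagen effect was -0.66, with a 95% interval of -1.96 to 0.64, so the stages are not shown to differ for Krt17. Krt6b, a type II partner in activated cells, stayed under 1 FPKM in all groups. Its values were 0.556 in anagen iKO and 0.264 in Het cells, 0.829 in second telogen cKO and 0.282 in WT cells, with SE of 9.86 and 13.5 on the log2 scale, so no difference was detectable. Of its transcript, 50.1% of the 50-base stretches occur in other genes, 44.5% in Krt6a. The merged row with Krt6a was at 496 FPKM in anagen iKO and 394 in Het cells, and at 327 in second telogen cKO and 400 in WT cells, with no call.

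Krt79, a type II keratin of the upper follicle, had the largest rise of the 9 tested keratins in both telogen comparisons. It was at 218 FPKM in second telogen cKO and 51.4 in WT cells, 4.24-fold higher (log2 fold 2.08, SE 0.37, q = 0.00159), and in the joint table at 216 in second telogen iKO and 53.4 in WT cells (log2 fold 2.02, SE 0.28, q = 0.000444). In anagen it was at 104 FPKM in iKO and 81.2 in Het cells (log2 fold 0.36, SE 0.24, q = 0.241). The telogen cKO effect exceeded the anagen iKO effect by 1.72 on the log2 scale (SE 0.44, 95% interval 0.86 to 2.59, an approximate two-sided z test since pooled values allow no exact test, adjusted p = 0.0193 with Benjamini-Hochberg over 12939 genes), where 0.657% of all genes were called. With the larger of both forms of SE the adjusted p was 0.249, which ends the call; the deposited p of Krt79 in telogen is at the smallest value Cuffdiff gave, 5e-05, from which the larger SE was taken. Stage, Cre driver, tamoxifen treatment, control genotype, strain, age and sex differ together between the comparisons and cannot be told apart. None of the other 8 keratins passed this test, with 95% intervals that, for example, run from -1.29 to 0.54 for Krt16 and from -0.71 to 1.02 for Krt80. The genes most like Krt79 over the 7 groups were Slco3a1, an organic anion transporter (r = 0.954), Defb6, a beta-defensin (0.950), and Ext1, a heparan sulfate polymerase (0.925).

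Krt80 was the keratin called lower. It was at 36.6 FPKM in anagen iKO and 100.2 in Het cells (log2 fold -1.45, SE 0.26, q = 0.00106), and at 78.0 in second telogen cKO and 192 in WT cells (log2 fold -1.30, SE 0.35, q = 0.00159). In the joint table second telogen iKO cells had 162 FPKM and WT cells 200 (log2 fold -0.30, SE 0.30, q = 0.305), with no call. In a comparison added after these values were seen, Krt80 was at 81.3 FPKM in second telogen cKO and 162 in second telogen iKO cells (log2 fold -0.99, SE 0.29, q = 0.000444). It was the only one of the 9 tested keratins called there, where 14.9% of all genes were called, 7.35% higher and 7.53% lower. Driver, tamoxifen treatment, strain, age and sex differ between these groups.

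Of the suprabasal genes, Krt1 was called in anagen, at 122 FPKM in iKO and 77.7 in Het cells (log2 fold 0.65, SE 0.24, q = 0.0096). Krt10 was at 309 FPKM in anagen iKO and 221 in Het cells (log2 fold 0.49, SE 0.25, q = 0.0833) and Krt77 at 130 and 101 in the same groups (log2 fold 0.37, SE 0.24, q = 0.223). In the second telogen all 3 lay above WT in cKO cells with no call: Krt1 at 434 FPKM in cKO and 292 in WT cells (q = 0.479), Krt10 at 1966 and 1402 (q = 0.891), and Krt77 at 844 and 680 (q = 0.879). The SE of Krt10 in that comparison was 0.87 on the log2 scale, so a difference of this size was not detectable there.

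**Figure D3:**
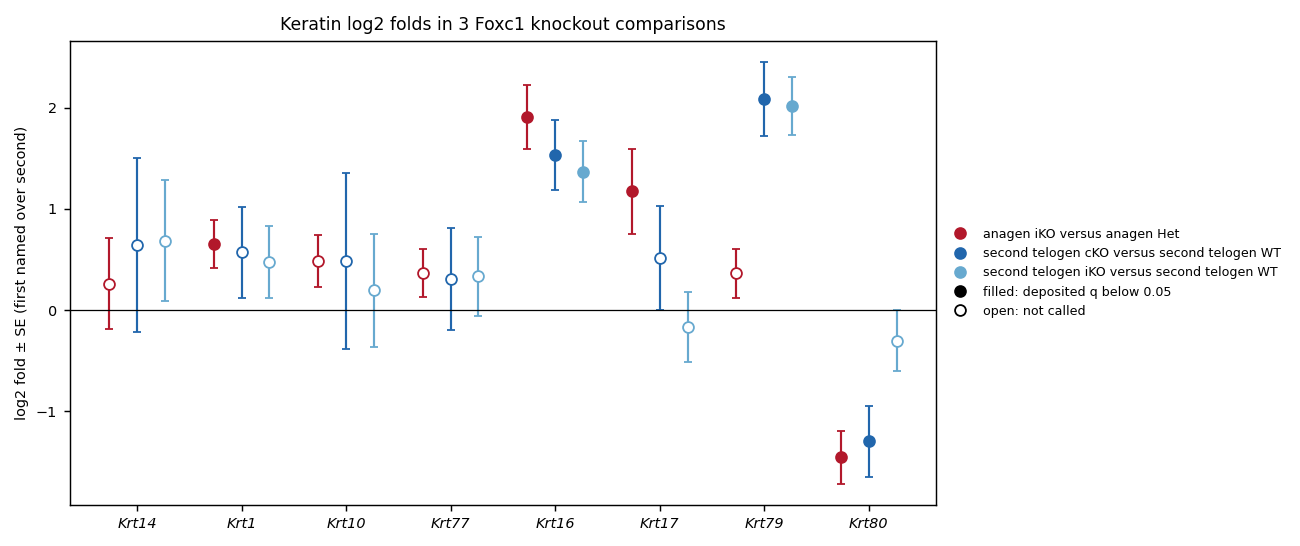
Log2 fold of 8 keratins, with the first named group over the second and bars of 1 SE, in anagen iKO against Het, second telogen cKO against WT and second telogen iKO against WT; filled points have a deposited q below 0.05, and Krt5 (not estimated) and Krt6b (SE of 9.86 or more) are not drawn. Krt16 is filled in all 3 comparisons, Krt79 in both telogen ones, Krt80 in anagen and in telogen cKO, and Krt1 and Krt17 in anagen.

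Between stages more of the keratins were called than between genotypes, and more genes of any kind. In second telogen iKO against anagen iKO cells, 6 of 9 were called, 5 higher and 1 lower, where 33.2% of all genes were called, 17.6% higher and 15.5% lower. Krt77 was at 893 FPKM in second telogen iKO and 123 in anagen iKO cells (log2 fold 2.86, SE 0.36), Krt10 at 1669 and 292 (2.52, SE 0.47), Krt80 at 162 and 34.6 (2.22, SE 0.29), Krt1 at 421 and 115 (1.87, SE 0.33) and Krt79 at 216 and 98.6 (1.13, SE 0.29), each with q = 0.000444. Krt17 was at 768 FPKM in second telogen iKO and 4904 in anagen iKO cells (log2 fold -2.68, SE 0.69, q = 0.000839). In anagen Het against second telogen WT cells, 7 of 9 were called, 2 higher and 5 lower, where 25.4% of all genes were called, 11.9% higher and 13.5% lower. Krt77 (log2 fold -2.89), Krt10 (-2.81), Krt1 (-2.05), Krt80 (-1.08) and Krt16 (-0.94) were lower in anagen Het cells, and Krt17 (1.34) and Krt79 (0.52, q = 0.0394) were higher. Krt79 was thus lower in anagen iKO than in second telogen iKO cells, and higher in anagen Het than in second telogen WT cells; the difference between these stage effects was not tested. The control groups also differ in genotype, Cre, tamoxifen treatment, strain, age and sex, which cannot be told apart from stage. Between second telogen iKO and anagen iKO cells, 11 of 18 hair shaft and inner root sheath markers were lower and 1 higher in telogen (sum 80.4 FPKM in second telogen iKO and 272 in anagen iKO cells). Immune cell markers were higher in 6 of 8 and lower in 1 (sum 101 and 24.9 FPKM in these groups), endothelial markers lower in 4 of 4 (sum 0.336 and 4.93), and fibroblast markers higher in 4 and lower in 3 of 11 (sum 254 and 180). In anagen Het against second telogen WT cells, hair shaft and inner root sheath markers were higher in 11 of 19 (sum 359 FPKM in anagen Het and 70.4 in second telogen WT cells). Of 6 endothelial markers 5 were tested, all higher in anagen Het cells, with the same limit. Immune cell markers were lower in 3 of 8 (sum 15.1 and 77.4 FPKM in these groups). Of the immune cell sums Cd74 made up 7.11 and 62.0 FPKM. Fibroblast markers were higher in 5 and lower in 3 of 11 (sum 310.0 and 420). Of these fibroblast sums, Col6a1 made up 129 and 210 FPKM. Against their direction, Col3a1 was at 28.7 FPKM in anagen Het and 0.382 in second telogen WT cells, and Dcn at 18.2 and 0.305. The part of these cells in the stage differences was not tested.

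**Figure D4:**
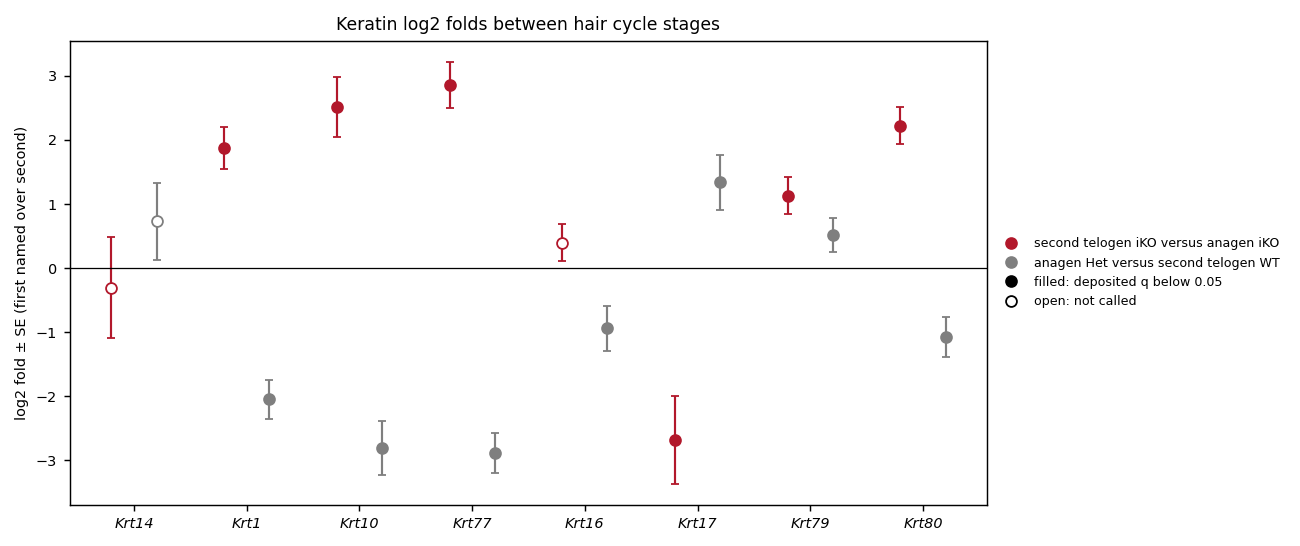
Log2 fold of 8 keratins with bars of 1 SE, for second telogen iKO over anagen iKO and for anagen Het over second telogen WT; filled points have a deposited q below 0.05. Krt1, Krt10, Krt77 and Krt80 are higher in telogen in both, Krt17 is higher in anagen in both, and Krt14 is open in both.

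The anagen II and first telogen libraries gave values with no replicate and no test. Krt17 was at 1891 FPKM in anagen II and 308 in the first telogen, 6.13-fold higher, and Krt79 at 128 and 63.9, 2.00-fold higher. Krt1 was 5.38-fold, Krt80 4.11-fold, Krt10 3.61-fold and Krt77 3.26-fold lower in anagen II. These 6 of 10 keratins passed 2-fold, as did 30.5% of the 13592 genes with at least 1 FPKM in one library, 10.4% higher and 20.1% lower. Krt5, Krt14, Krt16 and Krt6b did not. The 2 libraries also differed in markers of other cells. Fibroblast markers summed to 1247 FPKM in anagen II and 2527 in the first telogen, immune cell markers to 29.3 and 271. Of the immune cell sums Cd74 made up 12.7 and 200 FPKM. Endothelial markers summed to 8.53 and 58.5 FPKM in these libraries, and melanocyte markers to 57.0 and 50.4. The part of these cells in the keratin folds was not tested.

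The keratins' companions moved in part. The lists were chosen with earlier results of these data known. Of 24 genes of suprabasal differentiation, 5 rose and 1 fell in anagen iKO cells, or 25% against 10.3% of all genes. Krtdap, a secreted protein of stratified epithelium, was at 494 FPKM in iKO and 192 in Het cells (log2 fold 1.36), and Calml3, a calmodulin-like protein, was at 306 and 655 (log2 fold -1.10). In second telogen cKO cells 4 of 24 rose, or 16.7% against 6.62% of all genes. Among them was Sprr1b, a cornified envelope precursor, at 5.63 FPKM in cKO and 0.565 in WT cells. In second telogen iKO cells 5 rose and 5 fell, or 41.7% against 12.9% of all genes. Sprr1b was at 6.28 FPKM in iKO and 0.587 in WT cells, and Lor, the main cornified envelope protein, at 28.9 and 129.6. In anagen Het against second telogen WT cells 2 of the 24 were higher and 13 lower, or 62.5% against 25.4% of all genes.

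Genes of activated keratinocytes, the state that Krt16 and Krt17 mark, were called in 4 of 16 tested in anagen, all higher in iKO cells. That is 25%, against 10.3% of all genes. Lcn2, a siderophore-binding protein, was at 4.35 FPKM in iKO and 0.865 in Het cells, and Hbegf, an EGF receptor ligand, at 22.1 and 9.91. In second telogen cKO cells 2 of 17 rose and 2 fell, or 23.5% against 6.62% of all genes. Defb6 was at 473 FPKM in cKO and 151 in WT cells, and Ptgs2, the inducible prostaglandin synthase, at 7.62 and 20.4. In second telogen iKO cells 10 of 17 rose and 1, the matrix protein gene Tnc, fell, or 64.7% against 12.9% of all genes. Of 17 regulators of keratin genes, 2 were called in anagen, Klf4 and Gata3, both lower in iKO cells; that is 11.8%, close to the 10.3% of all genes, and Klf4 was at 116 FPKM in iKO and 171 in Het cells. In second telogen cKO cells 0 of 17 regulators and 0 of 16 filament anchors were called in the authors' deposited Cuffdiff table. The share of all genes called there was 6.62%. At an unadjusted p below 0.05 were 5 of the regulators and 3 of the anchors. In second telogen iKO cells 5 of 17 regulators rose, or 29.4% against 12.9% of all genes. Among them was Gata6, at 3.31 FPKM in iKO and 1.06 in WT cells. Of the anchors, 1 of 17 fell in anagen iKO cells, or 5.88% against 10.3% of all genes. It was Evpl, the envoplakin gene, at 19.6 FPKM in iKO and 28.9 in Het cells. The anchors called in second telogen iKO cells were 5 of 16, or 31.2% against 12.9% of all genes, 2 higher and 3 lower. Pkp1, a desmosomal plaque protein, was at 174 FPKM in iKO and 104 in WT cells, and Dsg3, a desmosomal cadherin, at 95.9 and 156.

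Among other epithelial keratins, Krt8, of simple epithelia, was higher in anagen iKO cells at 5.99 FPKM against 3.46 in Het cells, and in second telogen cKO cells at 7.13 against 2.84 in WT cells. In the joint table Krt8 was at 2.70 FPKM in second telogen iKO and 2.96 in WT cells, with no call, and cKO against iKO cells of the second telogen differed (log2 fold 1.46, SE 0.38, q = 0.000444). Krt24 fell to 97.0 FPKM in anagen iKO cells, against 161 in Het cells, and rose to 763 in second telogen iKO cells, against 353 in WT cells. Krt2 was at 3.03 FPKM in second telogen iKO and 0.930 in WT cells, and Krt23 at 8.98 and 18.3. In that comparison 2 of 8 tested rose and 1 fell, or 37.5% against 12.9% of all genes. In anagen 1 of 11 rose and 1 fell, or 18.2% against 10.3%. In second telogen cKO cells 1 of 8 rose, or 12.5% against 6.62%. Krt42, a type I keratin chosen after its values were seen, was at 30.4 FPKM in anagen iKO and 9.26 in Het cells (log2 fold 1.71, SE 0.27, q = 0.00106). It was under 1 FPKM in the second telogen groups.

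Markers of other cell types were counted in the knockout comparisons, where 10.3% of all genes were called in anagen, 6.62% in second telogen cKO and 12.9% in second telogen iKO cells. Counts near those shares, such as 1 of 8 melanocyte markers (12.5%) and 1 of 7 immune cell markers (14.3%) in anagen, and 2 of 12 bulge markers (16.7%) in second telogen iKO cells, say nothing about the list. All sums of markers are of joint table values, while the anagen and cKO calls are from the 2-group tables. In anagen, infundibulum, junctional zone and sebaceous gland markers had 2 of 14 higher and 1 lower in iKO cells. Their sum was 345 FPKM in iKO and 198 in Het cells, of which Gjb2, a gap junction gene, made up 190 and 55.9. In second telogen cKO cells 2 of 16 rose and 2 fell (sum 146 FPKM in cKO and 138 in WT cells), and in second telogen iKO cells 8 rose and 1 fell (sum 249 in iKO and 138 in WT cells). Bulge markers fell in 5 of 12 in anagen iKO cells and in 2 of 12 in each telogen comparison, with sums of 1018 FPKM in anagen iKO and 1509 in Het cells, and of 1134, 1266 and 1826 in second telogen cKO, iKO and WT cells. Hair shaft and inner root sheath markers fell in 9 of 19 in anagen iKO cells (sum 272 FPKM in iKO and 359 in Het cells). Fibroblast markers fell in 5 of 11 and rose in 1 in anagen iKO cells. In second telogen cKO cells 1 of 8 rose and 1 fell, and in second telogen iKO cells 5 of 10 fell. In the second telogen, 2 of 10 hair shaft and inner root sheath markers rose in cKO cells and 1 of 10 in iKO cells. Of melanocyte markers 1 of 8 fell in anagen iKO cells, 1 of 6 fell in second telogen cKO cells, and 2 of 8 rose and 1 fell in second telogen iKO cells. Of immune cell markers 1 of 7 rose in anagen iKO cells, 1 of 6 fell in second telogen cKO cells and 1 of 7 rose in second telogen iKO cells. Endothelial markers fell in 2 of 5 in anagen iKO cells and in 1 of 1 in second telogen iKO cells, and 0 of 2 were called by Cuffdiff in cKO cells (1 at an unadjusted p below 0.05). Of the 6 listed, most were under 1 FPKM in these groups, and those not tested are not counted. Over the 7 groups the summed levels ran between 27.7 and 57.0 FPKM for melanocyte, 15.1 and 271 for immune cell and 0.336 and 58.5 for endothelial markers. The part of other cell types in the keratin values was not tested.

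For the remaining keratins the likeness over 7 groups was as follows, with no meaning drawn from shared pattern. Krt1 was most like Sbds (r = 0.992), Anxa1 (0.988) and Anxa7 (0.985), Krt77 like Ptgs1 (0.998), Orm1 (0.998) and Krt10 (0.997), and Krt14 like Ptpra (0.976), Mrpl32 (0.974) and Hmces (0.972). Krt16 was most like Pdcd10 (0.974), Taf1d (0.968) and Skint2 (0.966), Krt17 like Tmem126a (0.991), Casp1 (0.989) and Polr2d (0.989), and Krt80 like Bbs2 (0.991), Sgms2 (0.986) and Nyap1 (0.982). Krt17 and Krt80 ran opposite to each other, at r = -0.79.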

How the data were processed

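Sorted hair follicle stem cells gave 12 mRNA libraries in 7 groups, made with the TruSeq kit, as the labels' protocols say. TopHat, Cufflinks, Cuffdiff and build mm9 are named in the submitters' processing notes; versions and settings are not given in the sources used here. Deposited by the authors are 3 tables, with 1 pooled FPKM per group and gene. The log2 fold, the test statistic (a score), the p-value and the q-value are the authors' own, per the file headers. In the joint table the deposited q-value covers all 21 pairs at once. Tables were scaled separately, so levels are compared only within a table. Depth is unknown, so no interval from counts is given. The labels name a mouse for each library, but do not say whether mice of one group came from separate litters or were handled apart. So p-values cover no spread beyond these libraries. They rest on a spread as Cuffdiff estimated it, which changed with the table. For Krt17 in anagen iKO against Het cells the SE was 0.42 in the anagen table and 0.73 in the joint table.

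SE was computed as log2 fold over the statistic, an approximation. The difference between knockout effects was a two-sided z test with Benjamini-Hochberg adjustment over all genes tested in both 2-group tables. Genes whose statistic passes a normal test where the deposited p does not were left out. The simulated data on which the z test was tried were drawn with the same SE, so they could not check that SE. Likeness used genes with at least 10 FPKM in one group. Named genes were all members, Foxc1, up to 3 called genes per list and comparison by lowest p, and the 3 genes most like each member; exceptions are marked as chosen after their values were seen. The members and the 12 lists were chosen with earlier results of these data known. Alternatives were another table, q below 0.01, a filter of 1 FPKM and pseudocounts of 1 and 5. Python 3.11.15, pandas 2.3.3, numpy 2.4.6 and scipy 1.17.1 were used.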

Additional observations from a re-analysis of the deposited data

Results flagged for a closer look

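The log2 fold of Krt79 differed between 2 knockout comparisons by the test of the difference itself. Stage, Cre driver, tamoxifen treatment, control genotype, strain, age and sex differ together between them and cannot be told apart. The log2 fold was 2.08 in second telogen cKO over WT cells and 0.36 in anagen iKO over Het cells, a difference of 1.72 (SE 0.44, adjusted p = 0.0193, an approximate z test since pooled values allow no exact test). Adjusted p ranged from 0.00414 to 0.249 over the alternatives, and at 0.249, with the larger of both forms of SE, the call was lost.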

How the results depend on the processing

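Of 30 alternatives for counts of called keratins and medians, 28 kept the count within 1.5 times or kept the direction of the median. The other 2 concern the keratins whose knockout effect differs between the anagen and telogen comparisons, a count of 1 that became 0 with an adjusted p below 0.01 and 0 with the larger of both forms of SE. Of 72 alternatives for single log2 folds, all kept the direction. The joint table, which has its own test, kept 17 calls or non-calls, and Krt17 in anagen lost its call there (log2 fold 1.17, q = 0.127). The pseudocounts give a fold with no test. With a pseudocount of 5 the Krt16 folds became 1.23 in anagen, 1.12 in second telogen cKO and 1.00 in second telogen iKO cells, as the construction of that ratio shrinks low values. Krt6b, under 1 FPKM, shrank most, to 0.30 with a pseudocount of 1 and 0.078 with 5 in anagen, and to 0.51 and 0.14 in second telogen cKO cells. The wider TATA letters, chosen after the promoters had been read, gave 2 of 5 promoter windows with a match in place of 1 of 5. No paired analysis was possible because each table holds 1 pooled value per group, and for the same reason no library could be left out. Groups of 2 libraries and an unknown depth limit what could be detected, most of all for Krt6b. Krt5 could not be compared because of its HIDATA status.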
